A study of Drosophila melanogaster with 14 samples.

Results

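The regions described are the outer 100 kb of 4 assembled chromosome arms of Drosophila melanogaster, X, 2L and 3L at their left tips and 3R at its right tip. They were chosen by position alone, as bins of 1 kb in the dm3 build, and numbered 400 of the 168744 bins of each file, 100 per arm. The 3R end ran from 27806001 to 27905053 and its outermost bin was 53 bases long, so distances on 3R are counted in bins from the last one. The tissue was ovaries of flies aged 3 to 14 days. The knockdown ovaries (shCuff) carried the germline driver P{GAL4::VP16-nos.UTR}CG6325MVD1 over the hairpin insertion TRiP.GL00054 at attP2, directed against cutoff. For total and poly(A) RNA the shWhite control carried that driver over TRiP.HMS00017 at attP2, whose hairpin targets white, a gene of eye pigment transport. In nuclear run-on the control flies were w[1118] with the driver alone and no hairpin, so their genotype differs from that of the RNA controls. Total RNA depleted of ribosomal RNA was measured in 2 shCuff and 2 shWhite libraries, 1 pair in each of the library sets AC and ES named in the titles. Poly(A) RNA (set AC) and run-on RNA (set ES), in which polymerases already on the template extend and label their RNA, had 1 library per group. The nos driver acts in germ cells, while ovaries also hold somatic follicle cells, and in these bulk samples fewer cells of a type and less RNA per cell cannot be told apart.

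Drosophila telomeres are not built by telomerase. They end in arrays of the retrotransposons HeT-A, TART and TAHRE, and inside these lie telomere-associated sequences, repeats that the germline transcribes as sources of piRNAs, the small RNAs that guide PIWI proteins against transposons. Cutoff acts at such loci together with Rhino and Deadlock and is known to keep RNA polymerase II transcribing through them. Inward of the repeats, ordinary genes begin. In the Release 6 gene table, used only for the order of names, the outermost protein-coding genes of 2L are l(2)gl, a cell polarity tumour suppressor, Ir21a, an ionotropic receptor, and Cda5, a chitin deacetylase. Those of 3L are mthl8, a receptor of the Methuselah family, CG43149 and Lsp1gamma, a larval serum protein. On 3R they are Map205, a microtubule-associated protein, mod, a nucleolar protein, and krz, a beta-arrestin. On X the list begins with SteXh:CG42398 and CG17636. The bins carry no gene names and no dm3 annotation was used here, so no bin is assigned to a gene, and the level of cuff and of ovary cell markers was not analysed here.

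Libraries held 2438630 to 10932667 reads, and the 4 ends took 0.157% to 0.288% of them. The total RNA library of shCuff replicate 2 stood apart at low counts. In it 0 to 3 bins per end held 1 to 3 reads, against 10 to 34 bins per end in shWhite replicate 2. A weakly covered bin is thus listed at 0 in that library more often than in its partner, which touches every ratio of the replicate 2 pair that rests on few reads. Of the 400 bins, 98 held no read in any library. The outermost 6 kb of X, 5 kb of 2L, 31 kb of 3L and 7 bins of 3R were empty throughout, so the terminal 5-kb step of each end gave no value. Whether the repeats there could take reads under the authors' alignment was not tested. Levels below are RPM, reads per 1000000 library reads, or RPKM, RPM per kb. Ratios are shCuff over control in RPM, with a 95% exact conditional (Clopper-Pearson) interval that covers counting error only, as PCR copies are not independent molecules.

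Summed over 100 kb, no end passed the test for a change in total RNA. With 4 libraries and terms for genotype and library set, the test had 1 residual degree of freedom, so a real change could be missed. The X end held 2426 and 403 RPM in shCuff (replicates 1 and 2), against 2443 and 447 RPM in shWhite. The 2L end held 60.3 and 344 RPM in shCuff, against 46.8 and 549 RPM in shWhite. The 2 pairs moved in opposite directions at 2L, higher in the replicate 1 pair and lower in the replicate 2 pair. The 3L end, the weakest of the 4, held 12.9 and 20.2 RPM in shCuff, against 7.74 and 17.4 RPM in shWhite. The 3R end held 254 and 806 RPM in shCuff, against 207 and 888 RPM in shWhite, again with the pairs on opposite sides. For X the log2 change was -0.08 (SE 0.20, adjusted p = 0.928) and for 2L -0.18 (SE 0.28, adjusted p = 0.856), by the quasi-likelihood test of edgeR, adjusted after Benjamini and Hochberg over 1447 windows of 100 kb. The same edgeR test gave 0.47 (SE 1.08, adjusted p = 0.925) for 3L and 0.07 (SE 0.18, adjusted p = 0.928) for 3R. At an unadjusted p under 0.05 the count of ends was also 0 of 4, beside 7.53% of all windows, and no other tool run called an end. Of all such windows, 0.415% were called higher in shCuff and 0.0691% lower.

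No replicate check exists for the ratios in poly(A) RNA or run-on, each from a single pair of libraries. In poly(A) RNA the X end held 1409.8 RPM in shCuff and 1546 RPM in shWhite, a ratio of 0.912 (0.891 to 0.934). The poly(A) ratio was 0.866 (0.717 to 1.05) for 2L, 1.11 (0.607 to 2.07) for 3L and 1.11 (1.04 to 1.18) for 3R. In run-on the 3L end held 524 RPM in shCuff and 721 RPM in the control, a ratio of 0.727 (0.676 to 0.781), the only one of the 4 with an interval wholly below 1. The run-on ratio was 1.22 (1.13 to 1.31) for X, 0.939 (0.875 to 1.01) for 2L and 1.24 (1.18 to 1.31) for 3R. Without its bin from 19001 to 20000 the X end had a ratio of 0.781 (0.716 to 0.851), also wholly below 1. Over all 1503 windows of 100 kb with at least 20 run-on reads the median ratio was 0.985, with quartiles of 0.779 and 1.37, so 3L lay just below the lower quartile and the other 3 ends between the quartiles.

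**Figure D1:**
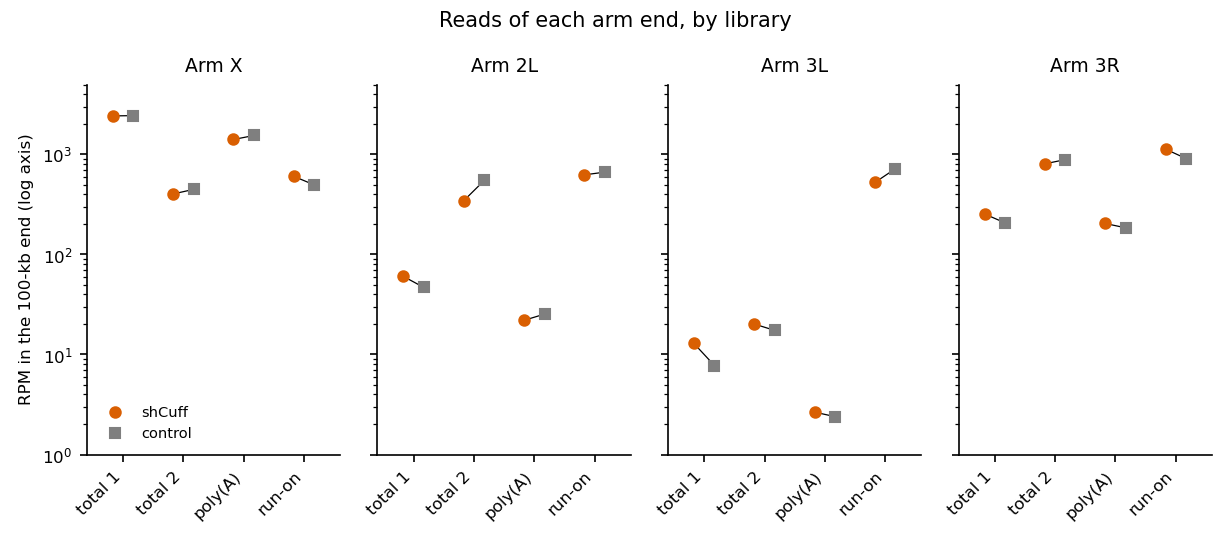
Reads per 1000000 library reads (RPM, log axis) in the outer 100 kb of each arm, with shCuff (circles) left of its control (squares) for the 2 total RNA pairs, poly(A) RNA and run-on; each point is 1 library. At 3L all RNA libraries lie between 2.39 and 20.2 RPM and the run-on libraries at 524 RPM in shCuff and 721 RPM in the control.

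The control level of the ends differed between assays and library sets. In shWhite total RNA the 2L end was 11.7-fold higher in replicate 2 than in replicate 1, the 3R end 4.29-fold higher (3.96 to 4.65) and the 3L end 2.25-fold higher (1.45 to 3.61). The X end went the other way, at 0.183 (0.175 to 0.191), but this came from 1 bin, from 19001 to 20000. That bin held 2401 RPM in shWhite replicate 1 and 213 RPM in replicate 2. The rest of the X end held 41.4 and 235 RPM, higher in replicate 2 like the other ends. The median ratio over 1232 windows of 100 kb was 1.16, with quartiles of 0.777 and 1.96. The cause was not tested, and the sets were deposited under differing processing codes that the labels do not explain. Ranked by shWhite replicate 1 total RNA the order was X, 3R, 2L, 3L, and by replicate 2 it was 3R, 2L, X, 3L. Without the X bin from 19001 to 20000 the order was 3R, 2L, X, 3L in both replicates. Thus 3L was lowest in both.

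Run-on signal at 3L was not low. In control run-on the mean levels per kb were 9.18 RPKM for 3R, 7.21 for 3L, 6.66 for 2L and 4.96 for X. Set against shWhite replicate 2 total RNA of the same library set, the run-on level of 3L was 41.4-fold higher (33.8 to 51.3), while the ratio was 1.21 (1.14 to 1.29) for 2L, 1.11 (1.03 to 1.19) for X and 1.02 (0.974 to 1.08) for 3R. The median over 1391 windows was 1.62, with an upper quartile of 6.48. A high value was not confined to 3L, since the 100 kb next inward on 3R had 21.8 (18.6 to 25.7). Against shWhite replicate 1, of the other library set, the ratio was 93.1 for 3L, 14.2 for 2L, 4.39 for 3R and 0.203 for X. The run-on and RNA controls differ in genotype, and the part of that in the ratio was not tested.

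**Figure D2:**
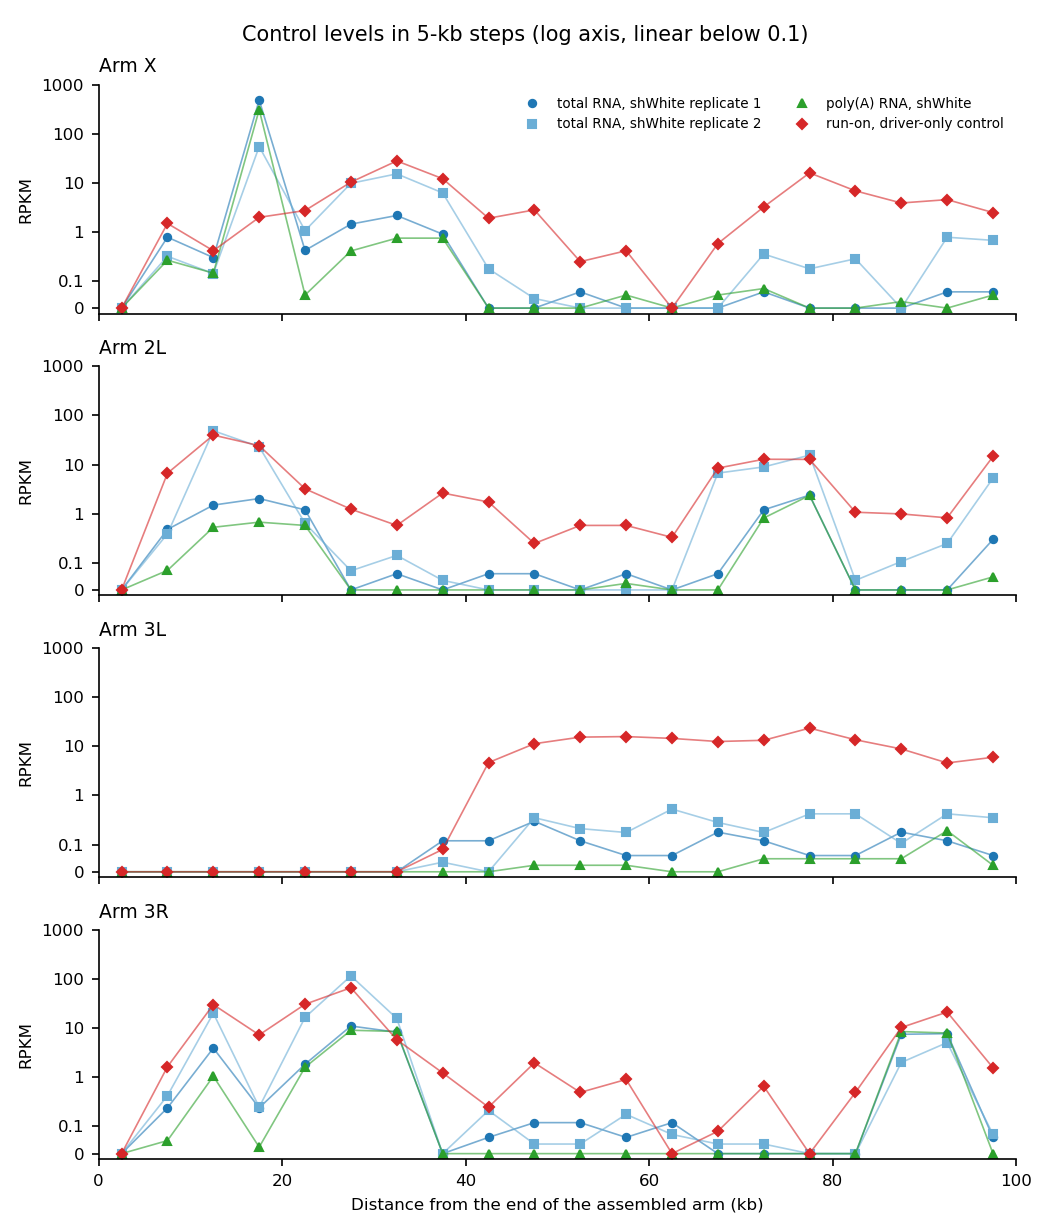
Level in RPKM (log axis, linear below 0.1) of each 5-kb step against its distance from the end of the assembled arm, in bins counted as 1 kb, in the 2 shWhite total RNA libraries, the shWhite poly(A) library and the driver-only run-on library. RNA is concentrated in a few steps of X, 2L and 3R, while run-on at 3L lies between 11.3 and 23.5 RPKM from 45 to 85 kb with little RNA.

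The 4 ends were read in 80 steps of 5 kb. Of these, 33 held at least 20 reads over the 4 total RNA libraries, and edgeR's test adjusted over all 11985 windows of 5 kb called 0 of them. Over all windows it called 0.225% higher in shCuff and 0.175% lower. At an unadjusted p under 0.05, edgeR had 2 of the 33 steps (6.06%), beside 7.59% of all windows. DESeq2 and limma on log2(RPKM + 1) also called 0 of the 33 steps, and limma on log2(RPKM + 0.1) called 1, on X. Of the 400 bins of 1 kb, 65 had a mean of at least 1 RPKM, and edgeR called 0 of these, with 4 (6.15%) at an unadjusted p under 0.05, beside 4.62% of all bins. DESeq2 and limma with either pseudocount called 0 of the 65 as well. Genome-wide edgeR called 0.0767% of 27388 bins higher and 0.0292% lower. The median log2 change was 0.23 over the 33 steps and 0.31 over all windows tested.

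On X the outermost step with reads, from 5001 to 10000, had higher values in shCuff in all 4 comparisons, though it did not pass the test in total RNA. This step held 23.0 and 10.9 RPM of total RNA in shCuff replicates 1 and 2, from 68 and 80 reads, against 3.87 and 1.58 RPM in shWhite, from 13 and 9 reads. Poly(A) RNA was at 15.5 RPM in shCuff, from 169 reads, and at 1.31 RPM in shWhite, from 11 reads. Run-on was at 54.5 RPM in shCuff, from 137 reads, and at 7.38 RPM in the control, from 18 reads. In total RNA both shCuff libraries were above both shWhite libraries, and in the other assays the shCuff library was above its control. The ratio was 5.95 (3.26 to 11.7) and 6.88 (3.45 to 15.6) in the total RNA pairs, 11.8 (6.41 to 24.0) in poly(A) RNA and 7.39 (4.50 to 12.8) in run-on. edgeR's log2 change in total RNA was 2.66 (SE 0.84), at an unadjusted p of 0.00394 but an adjusted p of 0.333 over all windows, so the step was not called. With limma on log2(RPKM + 0.1) its adjusted p was 0.0400. It was the only 1 of 16 steps of the ends with at least 20 reads in every comparison that differed at least 1.5-fold the same way in all 4. Among the 6328 windows of the genome that met the same read minimum, 0.996% were higher in this sense and 0.648% lower. As this step was picked by those very ratios, they describe it and support nothing further.

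Within that step the reads lay between 7001 and 10000, apart from 1 poly(A) read further out. Total RNA of shCuff was spread over the 3 bins, with 34, 24 and 10 reads in replicate 1 and 29, 33 and 18 in replicate 2, outermost bin first, against 2, 5 and 6 and 1, 6 and 2 reads in shWhite. Poly(A) reads of shCuff numbered 3, 146 and 19 in the same bins, against 0, 8 and 3 in shWhite. Run-on reads of shCuff numbered 5, 106 and 26, against 2, 5 and 11 in the control. The outermost of these bins thus held much of the shCuff total RNA but little poly(A) or run-on signal, while the middle bin led in both of those. In edgeR's test of single bins the outermost one had the lowest unadjusted p of the 65 bins of the ends tested (0.00878), with a log2 change of 4.25 (SE 1.52, adjusted p = 0.944).

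Further in, 1 bin dominated the RNA of the X end. The bin from 19001 to 20000 held 96.6% and 98.3% of all X-end reads in the total RNA libraries of replicate 1 (shCuff, shWhite), and 39.4% and 47.5% in those of replicate 2. In poly(A) RNA its share was 97.7% in shCuff and 99.03% in shWhite. Its total RNA level was 2343 and 158 RPM in shCuff replicates 1 and 2, against 2401 and 213 RPM in shWhite. Its poly(A) level was 1377 RPM in shCuff and 1531 RPM in shWhite. The RNA ratios lay between 0.746 (0.687 to 0.809) in the replicate 2 pair and 0.976 (0.945 to 1.01) in the replicate 1 pair. The adjoining bin from 18001 to 19000, picked after its values were seen, was above its control in RNA. Its ratios were 2.50 (1.66 to 3.85) and 1.47 (1.29 to 1.68) in the total RNA pairs and 2.70 (1.56 to 4.94) in poly(A) RNA. It held 1 run-on read in shCuff and 0 in the control. Its edgeR log2 change was 0.92 (SE 0.51, adjusted p = 0.963), so it was not called.

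Run-on behaved unlike RNA in the bin from 19001 to 20000. It held 563 run-on reads, or 224 RPM, in shCuff, and 24 reads, or 9.84 RPM, in the control, a ratio of 22.8 (15.1 to 35.8). Over the step from 15001 to 20000 the log2 ratio of total RNA in the replicate 2 pair minus that of run-on was -4.66 (-5.25 to -4.06). In the neighbouring step from 10001 to 15000 run-on also was higher, with 46 reads in shCuff and 5 in the control. The ratio was 8.93 (3.56 to 28.8). RNA of that step was scarce and not higher. Total RNA had 1 and 0 reads in shCuff replicates 1 and 2, against 5 and 4 in shWhite. Poly(A) RNA had 5 reads in shCuff and 6 in shWhite. On the inner side, from 20001 to 25000, run-on was lower, with 7 reads in shCuff and 33 in the control. The ratio was 0.206 (0.077 to 0.473). Run-on has 1 library per group and a control of another genotype, so these differences carry no replicate check and the part of the genotype was not tested.

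Without the bin from 19001 to 20000 the X end gave other values. The other 99 bins held 83.0 and 244 RPM of total RNA in shCuff replicates 1 and 2, against 41.4 and 235 RPM in shWhite. The ratio was 2.01 (1.62 to 2.49) in the replicate 1 pair and 1.04 (0.969 to 1.12) in the replicate 2 pair. edgeR's log2 change became 0.51 (SE 0.31, adjusted p = 0.686). In poly(A) RNA the ratio was 2.21 (1.80 to 2.73) without the bin, and in run-on 0.781 (0.716 to 0.851). The ratios of 2.01 and 2.21 were not spread evenly over the X end. Of the replicate 1 total RNA reads, the step from 5001 to 10000 held 68 of 245 in shCuff and 13 of 139 in shWhite. The bin from 18001 to 19000 held 77 and 35 of them. Of the poly(A) reads, that step held 169 of 361 in shCuff and 11 of 125 in shWhite, and that bin 60 and 17.

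**Figure D3:**
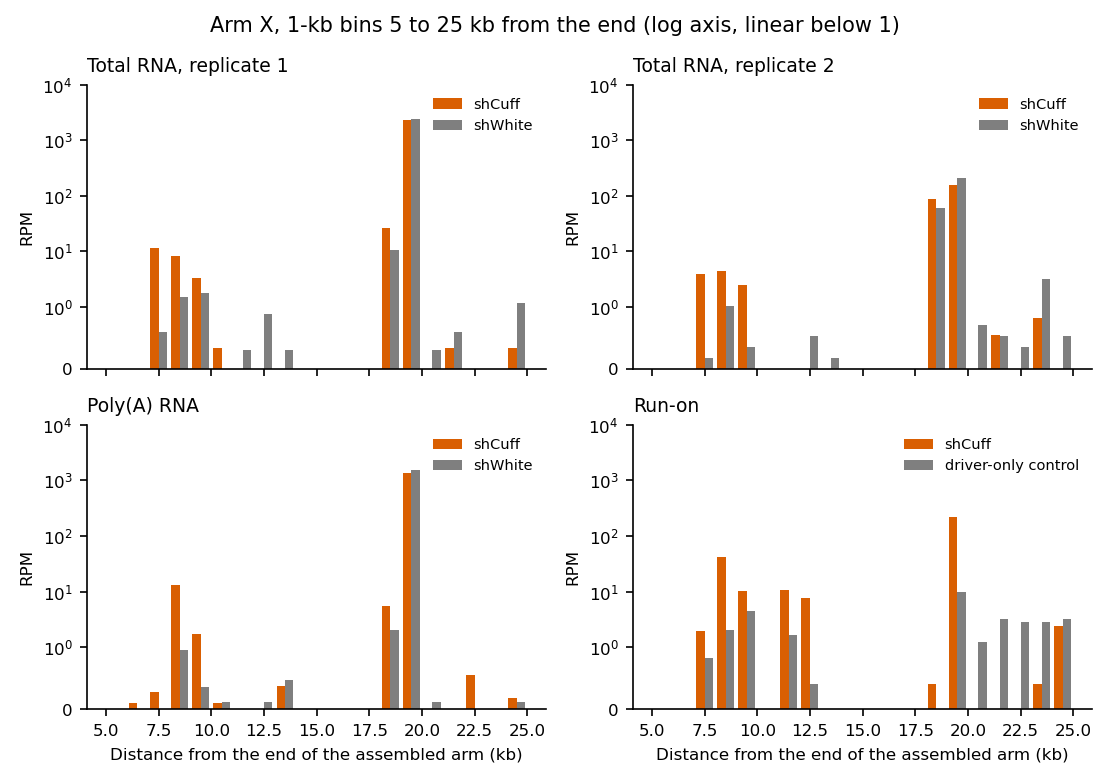
RPM (log axis, linear below 1) in the 1-kb bins 5 to 25 kb from the end of X, with shCuff (left bar) beside its control (right bar) in each of 4 comparisons, 1 library per bar. The bins at 7 to 10 kb are higher in shCuff in all 4 panels, and the bin at 19 kb differs in run-on (224 RPM in shCuff, 9.84 RPM in the control) and by less in RNA, where the ratios lie between 0.746 and 0.976.

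The block of X from 25001 to 40000 held 31.5 and 143 RPM of total RNA in shCuff replicates 1 and 2, against 22.3 and 155 RPM in shWhite, and the pairs moved in opposite directions. Its poly(A) ratio was 1.13 (0.845 to 1.53), while its run-on ratio was 0.662 (0.583 to 0.751), from 416 reads in shCuff and 610 in the control. The step from 30001 to 35000, the highest of X in control run-on at 27.7 RPKM, was the lowest of its 3 steps, with 163 reads in shCuff and 338 in the control, a ratio of 0.468 (0.386 to 0.566). In total RNA edgeR's log2 change of that step was -0.02 (SE 0.49, adjusted p = 0.993), from 15.6 and 53.4 RPM in shCuff replicates 1 and 2, against 10.7 and 75.6 RPM in shWhite. The step from 25001 to 30000 was above its control in all 3 RNA comparisons, at 11.5 and 63.4 RPM of total RNA in shCuff, against 7.15 and 48.5 RPM in shWhite, but was not called, with an edgeR log2 change of 0.52 (SE 0.50, adjusted p = 0.744). Its run-on ratio was 0.753 (0.572 to 0.990), on the other side of 1. From 70001 to 100000 there was run-on with almost no RNA, 109 RPM in shCuff and 183 RPM in the control, a ratio of 0.597 (0.512 to 0.696), against total RNA of 1.36 RPM in both shCuff replicates and of 0.893 and 11.3 RPM in shWhite. The block and this stretch were delimited after their values were seen. Run-on was at least 2-fold higher in shCuff in 4 of the 16 steps of X with at least 20 reads and at least 2-fold lower in 5. Over the 4 ends the counts were 8 and 9 of 55, beside 17.3% higher and 11.4% lower among all 13110 windows.

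**Figure D4:**
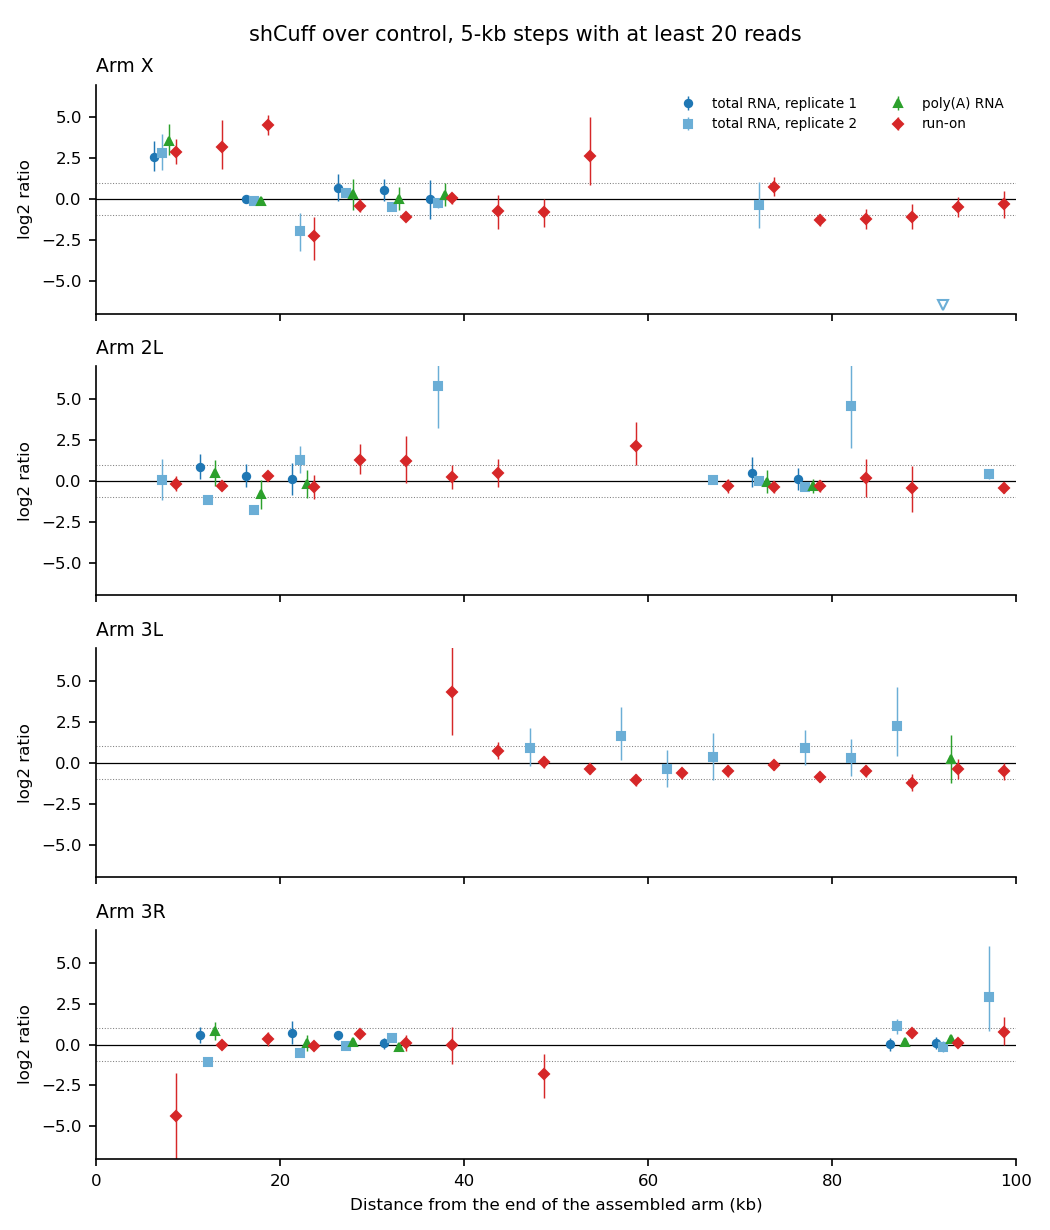
Log2 ratio of shCuff over control in each 5-kb step with at least 20 reads in both libraries together, against distance from the end of the assembled arm, for the 2 total RNA pairs, poly(A) RNA and run-on; bars are 95% intervals for counting error and are cut at the panel edge, dotted lines mark 2-fold, and the open triangle on X marks a step with 0 reads in shCuff. The step at 5 to 10 kb of X is high in all 4 comparisons, and most steps of 3L lie below 0 in run-on.

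On 2L the RNA of the end lay mainly in the 3 highest steps of shWhite total RNA, from 10001 to 20000 and from 75001 to 80000. The step from 10001 to 15000, also the highest of 2L in control run-on at 39.8 RPKM, held 13.6 and 111 RPM of total RNA in shCuff replicates 1 and 2, against 7.45 and 244 RPM in shWhite. The pairs disagreed, with ratios of 1.82 (1.08 to 3.13) and 0.453 (0.415 to 0.495). The next step, from 15001 to 20000, held 12.5 and 33.1 RPM in shCuff, against 10.1 and 115 RPM in shWhite, at ratios of 1.24 (0.756 to 2.03) and 0.288 (0.247 to 0.334). Neither step was called by edgeR, with log2 changes of -0.29 (SE 0.44, adjusted p = 0.840) and -0.84 (SE 0.53, adjusted p = 0.611). Run-on lay on opposite sides of 1 in these steps, at 0.811 (0.709 to 0.927) in the outer and 1.23 (1.05 to 1.44) in the inner one. Poly(A) RNA gave 1.39 (0.807 to 2.46) in the outer step, from 40 reads in shCuff and 22 in shWhite, and 0.574 (0.310 to 1.05) in the inner one, from 21 reads in shCuff and 28 in shWhite. A lower level of total RNA in both steps was thus seen in 1 library pair only. The fullest bin of 2L in shWhite, from 15001 to 16000, showed the same split, with 5.76 and 24.1 RPM in shCuff replicates 1 and 2, against 3.87 and 81.4 RPM in shWhite.

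The step of 2L from 75001 to 80000 differed little. It held 12.9 and 60.04 RPM of total RNA in shCuff, against 11.9 and 77.5 RPM in shWhite, with edgeR's log2 change at -0.15 (SE 0.47, adjusted p = 0.921). Its poly(A) ratio was 0.804 (0.604 to 1.07) and its run-on ratio 0.802 (0.629 to 1.02). Some single bins of 2L held reads in shCuff replicate 2 alone. The bin from 35001 to 36000 had 71 reads there and 0 in each of the other 3 total RNA libraries and in poly(A) RNA, with 19 run-on reads in shCuff and 9 in the control. The bin from 66001 to 67000 likewise had 57 total RNA reads in shCuff replicate 2 and 0 in the other 3. These bins are singled out for their values, and edgeR's adjusted p was 0.963 for both. Run-on was at least 2-fold higher in 3 of the 15 steps of 2L with at least 20 reads and at least 2-fold lower in 0, beside 17.3% and 11.4% of all windows, so the higher share was near that of the genome. The largest of these, from 55001 to 60000, had 32 reads in shCuff and 7 in the control, a ratio of 4.44 (1.92 to 11.9).

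The 3L end was almost silent in RNA on both sides. Its total RNA came to 38 and 148 reads in shCuff replicates 1 and 2, against 26 and 99 reads in shWhite, and its poly(A) RNA to 29 reads in shCuff and 20 in shWhite. The fullest bin in shWhite, from 93001 to 94000, had 1 and 0 total RNA reads in shCuff replicates 1 and 2, against 0 and 9 in shWhite. None of the 3 highest steps reached 1 RPKM on average in shWhite, and the highest, from 45001 to 50000, had 5 and 24 reads in shCuff replicates 1 and 2, against 5 and 10 in shWhite. Its edgeR log2 change was 0.56 (SE 1.65, adjusted p = 0.917), so a change of that size was not detectable at this depth. The other high steps were as thin. From 60001 to 65000 there were 1 and 15 reads in shCuff, against 1 and 15 in shWhite, and from 90001 to 95000 there were 3 and 0 in shCuff, against 2 and 12 in shWhite.

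Apart from 1 shCuff read from 30001 to 35000, run-on at 3L began between 35 and 45 kb and was present in every step further in. Control steps from 45001 to 85000 lay between 11.3 and 23.5 RPKM, and those from 85001 to 100000 between 4.59 and 8.86 RPKM. The highest, from 75001 to 80000, had 162 reads in shCuff and 287 in the control, a ratio of 0.548 (0.449 to 0.667). Of the 13 steps with at least 20 run-on reads, 10 were below 1, beside 6423 of all 13110 windows. At least 2-fold lower were 2 of the 13, beside 11.4% of all windows, from 55001 to 60000 at 0.478 (0.370 to 0.614) and from 85001 to 90000 at 0.431 (0.300 to 0.612). The 3 outermost were above 1. From 35001 to 40000 there were 21 reads in shCuff and 1 in the control, a ratio of 20.4 (3.28 to 843), and the next steps inward had ratios of 1.67 (1.19 to 2.36) and 1.03 (0.808 to 1.31). The median ratio of the 13 steps was 0.717, against 1.02 over all windows. This was not particular to 3L, as the X end had a median of 0.730, with 10 of its 16 steps below 1. The lower run-on level of 3L was not accompanied by lower RNA. There the log2 ratio of total RNA in the replicate 2 pair exceeded that of run-on by 0.67 (0.29 to 1.05), a difference that rests on 99 shWhite reads.

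The RNA of the 3R end was strongest between 10 and 35 bins from its tip, apart from the step from 27886001 to 27891000, which had 3 and 0 total RNA reads in shCuff replicates 1 and 2, against 4 and 7 in shWhite. The step from 27876001 to 27881000, the highest in shWhite total RNA and in control run-on, held 82.0 and 545 RPM in shCuff replicates 1 and 2, against 55.4 and 582 RPM in shWhite. Its edgeR log2 change was 0.23 (SE 0.35, adjusted p = 0.844). In run-on it had 533 RPM in shCuff and 334 RPM in the control, a ratio of 1.60 (1.46 to 1.74). Its poly(A) ratio was 1.13 (0.986 to 1.29). The bin with most shWhite total RNA reads, from 27879001 to 27880000, had 83 and 1258 reads in shCuff replicates 1 and 2, against 50 and 1228 in shWhite, and 807 run-on reads in shCuff against 440 in the control.

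The other high steps of 3R gave no common direction. From 27891001 to 27896000 total RNA was at 29.5 and 48.5 RPM in shCuff, against 19.7 and 101 RPM in shWhite, and the pairs again moved apart, with an edgeR log2 change of -0.27 (SE 0.47, adjusted p = 0.862). In that step the poly(A) ratio was 1.76 (1.22 to 2.56) and the run-on ratio 0.979 (0.845 to 1.13). From 27871001 to 27876000 total RNA was at 43.4 and 105 RPM in shCuff, against 41.4 and 78.9 RPM in shWhite, with an edgeR log2 change of 0.24 (SE 0.39, adjusted p = 0.850). Its poly(A) ratio was 0.891 (0.772 to 1.03) and its run-on ratio 1.08 (0.774 to 1.51).

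A second covered block of 3R, picked after its values were seen, lay near its inner border. Its step from 27816001 to 27821000 held 38.0 and 21.6 RPM of total RNA in shCuff replicates 1 and 2, against 37.5 and 10.02 RPM in shWhite, with a run-on ratio of 1.63 (1.30 to 2.04). The edgeR log2 change there was 0.56 (SE 0.54, adjusted p = 0.744), and in the step from 27811001 to 27816000 it was -0.01 (SE 0.48, adjusted p = 0.998).

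The outermost reads of 3R were scarce and lay mainly in the controls. In the 5 bins from 27894001 to 27899000, a stretch delimited after its values were seen, total RNA had 2 and 1 reads in shCuff replicates 1 and 2, against 20 and 73 reads in shWhite. Poly(A) RNA had 0 reads in shCuff and 9 in shWhite, and run-on had 19 reads in shCuff and 60 in the control. Each shCuff library was below its control. The ratio was 0.114 (0.0129 to 0.468) and 0.0106 (0.000265 to 0.0610) in the total RNA pairs and 0.307 (0.173 to 0.522) in run-on. In poly(A) RNA it was 0 (0 to 0.388), or 3.92-fold lower if 3 reads are set for the shCuff library. The replicate 2 pair includes the shCuff library that lists few weakly covered bins, whose part in the ratio of 0.0106 was not tested. In this stretch the bin from 27894001 to 27895000 had an edgeR log2 change of -5.82 (SE 2.23), an unadjusted p of 0.0139 and an adjusted p of 0.963.

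Within that stretch the run-on reads of shCuff lay almost wholly in the innermost bin. In its outermost pair of bins with run-on reads, from 27897001 to 27899000, run-on had 0 reads in shCuff and 20 in the control. The ratio was 0 (0 to 0.197), or 6.87-fold lower if 3 reads are set for the shCuff library. Total RNA there had 0 reads in both shCuff replicates, against 4 and 11 in shWhite. In the bin from 27895001 to 27896000 run-on had 0 reads in shCuff and 17 in the control, whereas in the bin from 27894001 to 27895000 it had 18 in shCuff and 23 in the control. Just inward, from 27892001 to 27894000, run-on was alike, with 301 reads in shCuff and 307 in the control, a ratio of 0.952 (0.809 to 1.12). The step from 27896001 to 27901000 as a whole had 1 run-on read in shCuff and 20 in the control, the lowest run-on ratio of the 55 steps of the ends, at 0.0485 (0.00117 to 0.303).

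**Figure D5:**
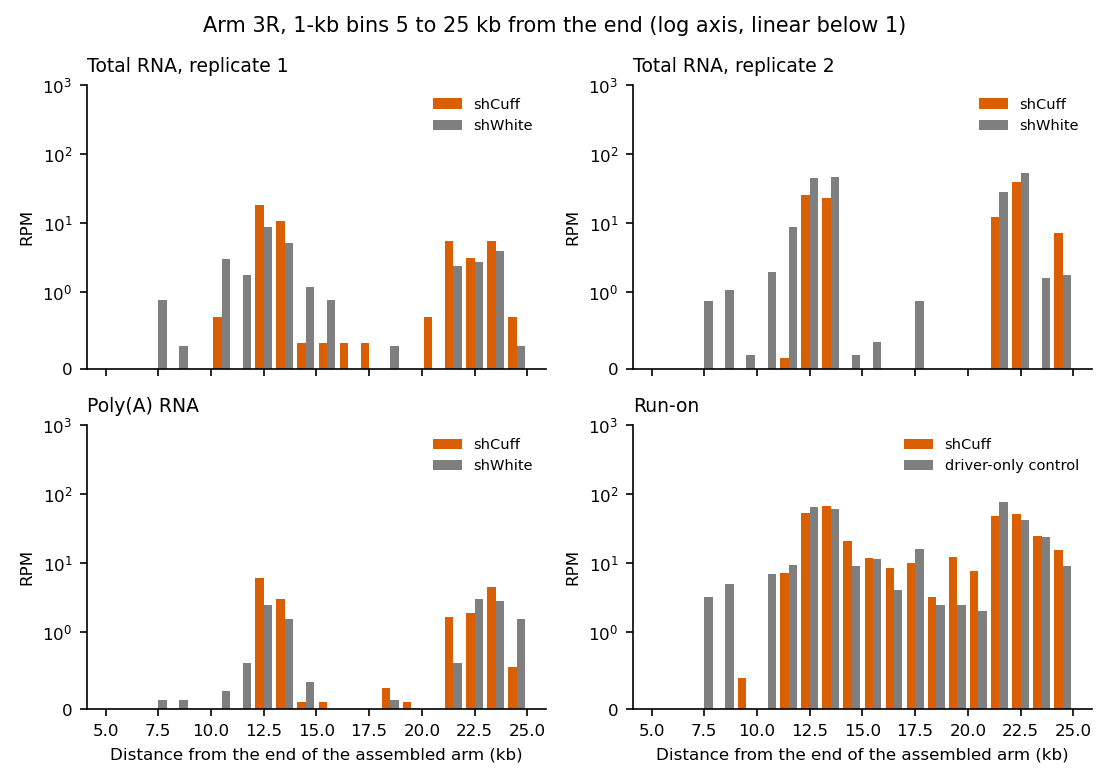
RPM (log axis, linear below 1) in the 1-kb bins 5 to 25 bins from the end of 3R, with shCuff (left bar) beside its control (right bar) in each of 4 comparisons, 1 library per bar; the outermost bin of the arm is 53 bases long, so distances are overstated by just under 1 kb. Outward of the bins at 12 and 13 kb, RNA reads lie mainly in the controls, and run-on is at 0 in shCuff in the bins at 7 and 8 kb.

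The outermost covered stretches thus had higher values in shCuff on X and lower ones on 3R. The X step was called only by limma with the pseudocount of 0.1. It was not called by edgeR, by DESeq2 (adjusted p = 0.762) or by limma with the pseudocount of 1 (adjusted p = 0.211). The 5 bins of 3R were not tested as a unit. On 2L the outermost step with reads, from 5001 to 10000, did not differ beyond counting error, with 74 run-on reads in shCuff and 81 in the control, a ratio of 0.887 (0.638 to 1.23), and at most 15 total RNA reads in any library. On 3L no library had reads in the outermost 31 kb. The difference between X and 3R was not tested.

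The 100 kb next inward on the same arms differed from the ends in level, in a way that depended on arm and assay. In control run-on the next 100 kb had 35.0 RPKM on 2L, 12.9 on 3L and 11.7 on X, but 6.44 on 3R, below its end at 9.18. In shWhite replicate 1 total RNA the ends of X and 3R were above the next 100 kb, at 24.4 and 2.09 RPKM, against 3.58 and 0.0596 RPKM inward. Those of 2L and 3L were below it, at 0.468 and 0.0774 RPKM, against 21.5 and 5.90 RPKM inward. Without its bin from 19001 to 20000 the X end was at 0.418 RPKM, also below the next 100 kb. In shWhite replicate 2 the whole X end was below it too, at 4.47 RPKM against 6.28 RPKM inward, while the other ends kept their side. In total RNA edgeR's log2 change of the next 100 kb was -0.32 (SE 0.17, adjusted p = 0.646) on X, -0.07 (SE 0.22, adjusted p = 0.933) on 2L, 0.06 (SE 0.16, adjusted p = 0.928) on 3L and 0.82 (SE 0.88, adjusted p = 0.799) on 3R. In run-on the next 100 kb of 3R had a ratio of 1.66 (1.56 to 1.77) and that of X 0.691 (0.652 to 0.731), both further from 1 than their ends. For the 5-kb steps of the 4 ends with at least 20 reads, the median ratio was 1.33 over 16 steps in the replicate 1 pair and 1.05 over 32 in the replicate 2 pair, beside 1.01 and 1.30 over all windows. In poly(A) RNA it was 1.09 over 17 steps, beside 1.06, and in run-on 0.811 over 55 steps, beside 1.02. Past 2-fold, higher in shCuff, were 1 of 16 steps in the replicate 1 pair, 8 of 32 in the replicate 2 pair and 1 of 17 in poly(A) RNA, beside 11.2%, 36.8% and 8.17% of all windows. Past 2-fold, lower in shCuff, were 0, 5 and 0 steps, beside 2.7%, 12.4% and 3.02%.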

How the data were processed

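Each deposited library file listed 1-kb bins of dm3 with a read count and an RPKM value made by the authors; the files have no header lines, and the units were read from the values. Deposited counts were whole in set AC. In set ES 1 to 8 bins per library were not exactly whole, for a reason not given in the sources used here, so the deposited values of that set were handled as estimated counts, that is, rounded. The submitters' processing notes name cutadapt, Bowtie 0.12.7 and dm3. How repeated reads were placed is not given in the sources used here, and the counts carry no strand. Counts were summed over windows of 5 kb and 100 kb that tile every sequence from its start, or from the end for 3R. Total RNA was tested with edgeR 4.0.16 (quasi-likelihood, R 4.3.3) on library totals, with terms for genotype and library set. Windows needed 20 reads over the 4 libraries and bins a mean of 1 RPKM, and p-values were adjusted by Benjamini-Hochberg over all features tested, at 0.05. The SE is the log2 change divided by the root of edgeR's F. Limma 3.58.1 and DESeq2 1.42.0 were alternatives. The sets stand in the titles and act as the replicate block; libraries of 1 set deviated together from their group means (r = 0.478 across 11985 windows). The labels name no separate flies or cultures for the replicates, and the p-values cover library-to-library spread that may be technical. Regions named were the ends, their terminal steps, in each end the 3 highest steps of shWhite total RNA, the highest step of control run-on and the bin with most shWhite total RNA reads, any called step or bin, and steps at least 1.5-fold in 1 direction in all 4 comparisons; others were picked after their values were seen. Members and rules were chosen with earlier results of these data known. Intervals used scipy 1.17.1. The other 6 samples of the series were not analysed here.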

Additional observations from a re-analysis of the deposited data

How the results depend on the processing

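No end was called in total RNA under any alternative. Leaving out each library in turn, without the term for library set, moved the log2 change from -1.84 to 1.66 for X, from -2.30 to 2.11 for 2L, from -0.074 to 1.09 for 3L and from -1.11 to 1.36 for 3R. These fits assume that a library alone in its group varies like the others. In each, 1 group holds a library of 1 set and the other group holds both sets. Level differences between the sets thus enter these values and cannot be told apart from the knockdown change. The sign turned without shCuff replicate 2 or shWhite replicate 1 for X and 3R, without shCuff replicate 1 or shWhite replicate 2 for 2L, and without shWhite replicate 1 for 3L. Without shCuff replicate 2 or shWhite replicate 1, but not without the other libraries, the sign also turned for the steps X 15001 to 20000 (range -2.44 to 2.26) and 3R 27876001 to 27881000 (-1.96 to 2.50). Without shWhite replicate 2 alone it turned for 2L 10001 to 15000 (-3.21 to 3.06) and 3R 27891001 to 27896000 (-1.37 to 0.99). With no replicate block the change was -0.047 for the 3R end and -0.024 for the 3R step from 27876001, both turned round; it changed no call at the ends. Without its most covered bin the X end came to 0.51 on the log2 scale in total RNA, with ratios of 2.21 (poly(A)) and 0.781 (run-on), and the 3R end a run-on ratio of 1.11; with TMM factors the poly(A) ratio of X was 0.868. The X step from 5001 to 10000 stayed positive in 11 of 11 alternatives, between 1.47 and 3.40. This sign was set by how the step was picked, as both shCuff total RNA libraries lay above both shWhite libraries there. It therefore supports nothing further.

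Over the genome, edgeR called 48 windows of 5 kb, against 85 without a filter, 79 and 119 by limma with pseudocounts of 1 and 0.1, 1 with no replicate block and 3 to 11 without 1 library. In the 4 ends the count was 1 with the pseudocount of 0.1 and 0 otherwise. For 1-kb bins it called 29, against 4 with TMM factors, 59 without a filter, 100 and 176 by limma with pseudocounts of 1 and 0.1, 0 with no replicate block, 16 with totals without the most abundant bin and 0 to 14 without 1 library. The cause of these changes was not tested. Of 183 alternative values, 96 for ends and counts and 47 for single steps were labelled unchanged. For log2 changes that meant the same direction and side of the threshold. Counts and the poly(A) and run-on ratios were labelled by another rule. The X poly(A) ratio of 0.868, against 0.912, was labelled as moved though its direction was the same.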
